A study of Mus musculus with 4 samples.

Results

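The 54 cell cycle and proliferation genes described here were measured in CD11b+Ly6g+ MDSCs (myeloid-derived suppressor cells) sorted from mouse lungs. They were taken by gene symbol from a list of known cell cycle genes and are 54 of the 54532 genes counted. The cells came from C57BL/6 mice aged 6 to 8 weeks in a PMN (pre-metastatic niche) model. All 4 groups received MCM (melanoma-conditioned medium, 300 μL per mouse, intraperitoneally) on 10 days in a row and B16F10 melanoma cells by tail vein on day 7, and lungs were taken on day 10. The Ctrl group had no peptide treatment. The TP5 group received thymopentin (TP5), a short immunomodulating peptide, under the skin at a daily 40 μM/kg, beginning on day 3. The FR17 group received, by the same route and dose, a peptide that carries TP5 and assembles after it is cut by the protease MMP2. The sFD17 group received its counterpart with the TP5 sequence scrambled. Each group was represented by 1 library from the pooled cells of 10 to 12 mice, so no difference between groups has a replicate check, and the intervals given cover counting error only. In such bulk RNA, more dividing cells in the sort and more RNA of these genes per cell cannot be told apart.

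The cell division cycle copies DNA in S phase and parts the copies in M phase, with the gaps G1 and G2 between them. Cyclins and their kinases drive each step, E2F factors switch on the genes of S phase, and MYBL2 and FOXM1 work on the genes of G2 and M phase. In the bone marrow, granulocyte precursors divide until about the myelocyte stage, and their later forms, including blood neutrophils, carry the same surface markers CD11b and Ly6g without dividing.

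RefSeq promoter windows (GRCm38.p6, 250 bases before to 50 after the start site) were matched for 45 of the 54 members, giving 49 windows. The letters searched, on both strands, were CCAAT (the CCAAT box, bound by NF-Y), the cell cycle homology region CHR as TTTGAA or TTCGAA, where the MuvB complex with MYBL2 and FOXM1 binds, and the E2F site as TTTCCCGC, TTTCGCGC, TTTGCCGC or TTTGGCGC. The CHR stood in 23 of the 29 windows of the G2 and M phase members, or 79.3%, against 4 of 20 among G1/S and S phase members (20%) and 19.2% of all 32851 promoters. The E2F letters went the other way, with 8 of 20 G1/S and S phase windows (40.0%), 1 of 29 G2 and M phase windows (3.45%) and 2.26% of all promoters. The CCAAT box was held by 70.0% of G1/S and S phase windows, 82.8% of G2 and M phase windows and 37.4% of all. Both CHR and CCAAT box stood in 21 of the 29 G2 and M phase windows, which is 72.4%, against 7.52% of all promoters. Of the 33 CHR matches in the G2 and M phase windows, 23 began at or after base -40, counting the start site as 0. Positions were not counted for all promoters, so this share has no background. Matches are counted by window, and 4 members had more than 1 window, so a shared site can count in each. A match is a description of letters, and binding was not measured.

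The 160 bases before the start site are shown for the 7 matched members that were at least 2-fold higher in the TP5 group than in Ctrl, then for 2 MCM helicase genes and for Kif23, a mitotic gene that was lower in that group. Capitals mark matches of the 3 motifs on either strand, and sequences run 5′ to 3′ on the gene's strand.
Cenpe (chr3:135212403-135212562, plus strand): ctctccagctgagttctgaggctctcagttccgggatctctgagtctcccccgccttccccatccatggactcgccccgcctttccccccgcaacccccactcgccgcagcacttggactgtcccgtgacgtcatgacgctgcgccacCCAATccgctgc
Nusap1 (chr2:119618138-119618297, plus strand): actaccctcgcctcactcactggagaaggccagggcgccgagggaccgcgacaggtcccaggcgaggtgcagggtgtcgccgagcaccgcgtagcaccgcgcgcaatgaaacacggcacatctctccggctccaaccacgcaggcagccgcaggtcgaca
Cenpf (chr1:189688087-189688246, minus strand): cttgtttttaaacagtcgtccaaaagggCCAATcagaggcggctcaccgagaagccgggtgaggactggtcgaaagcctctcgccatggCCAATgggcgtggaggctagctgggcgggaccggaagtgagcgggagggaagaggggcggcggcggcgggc
Cenpw (chr10:30200541-30200700, minus strand): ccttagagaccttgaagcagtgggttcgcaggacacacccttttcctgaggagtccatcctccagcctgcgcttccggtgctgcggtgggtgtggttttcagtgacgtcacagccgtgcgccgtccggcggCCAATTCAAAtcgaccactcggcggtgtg
Cdc20 (chr4:118437344-118437503, minus strand): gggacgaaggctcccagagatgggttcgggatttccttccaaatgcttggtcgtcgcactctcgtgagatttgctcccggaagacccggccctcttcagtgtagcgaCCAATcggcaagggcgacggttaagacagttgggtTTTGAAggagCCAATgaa
Hmmr (chr11:40733438-40733597, minus strand): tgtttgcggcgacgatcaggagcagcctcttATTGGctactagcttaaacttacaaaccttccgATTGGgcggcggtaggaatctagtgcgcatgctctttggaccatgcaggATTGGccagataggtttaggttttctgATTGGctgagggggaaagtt
Kif11 (chr19:37376222-37376381, plus strand): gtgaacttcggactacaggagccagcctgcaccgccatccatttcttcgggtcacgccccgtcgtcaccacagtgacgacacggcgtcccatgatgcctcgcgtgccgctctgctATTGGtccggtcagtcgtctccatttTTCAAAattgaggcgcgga
Mcm5 (chr8:75109349-75109508, plus strand): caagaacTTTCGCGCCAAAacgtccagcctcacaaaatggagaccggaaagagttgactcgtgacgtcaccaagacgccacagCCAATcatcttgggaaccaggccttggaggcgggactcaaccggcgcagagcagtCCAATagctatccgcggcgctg
Mcm6 (chr1:128359706-128359865, minus strand): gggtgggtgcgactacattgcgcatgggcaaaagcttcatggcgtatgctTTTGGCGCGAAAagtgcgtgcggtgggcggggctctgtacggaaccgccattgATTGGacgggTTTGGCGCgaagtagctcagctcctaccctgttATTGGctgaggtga
Kif23 (chr9:61946800-61946959, minus strand): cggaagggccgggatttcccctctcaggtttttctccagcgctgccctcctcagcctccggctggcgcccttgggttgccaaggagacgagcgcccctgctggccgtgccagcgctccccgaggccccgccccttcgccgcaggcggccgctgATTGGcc
Cdc20 held 2 CCAAT boxes at bases -53 and -8 with a CHR at -18 between them. In Cenpw the CCAAT box at -29 and the CHR on the other strand at -25 shared 1 base. Kif11 held both motifs, each on the opposite strand, at -45 and -19. Hmmr held 4 inverted CCAAT boxes in the stretch shown, and in Cenpf, Hmmr and Kif23 a CHR lay past the start site at bases 2, 8 and 2. The printed stretch of Nusap1 held no match. Mcm6 held the E2F letters at -110 and -47 on the gene's strand and at -106 on the other, and Mcm5 held them at -153 and, on the other strand, at -149, each pair of neighbours overlapping. The histogram of motif positions shows these placements for all matched members.

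**Figure D1:**
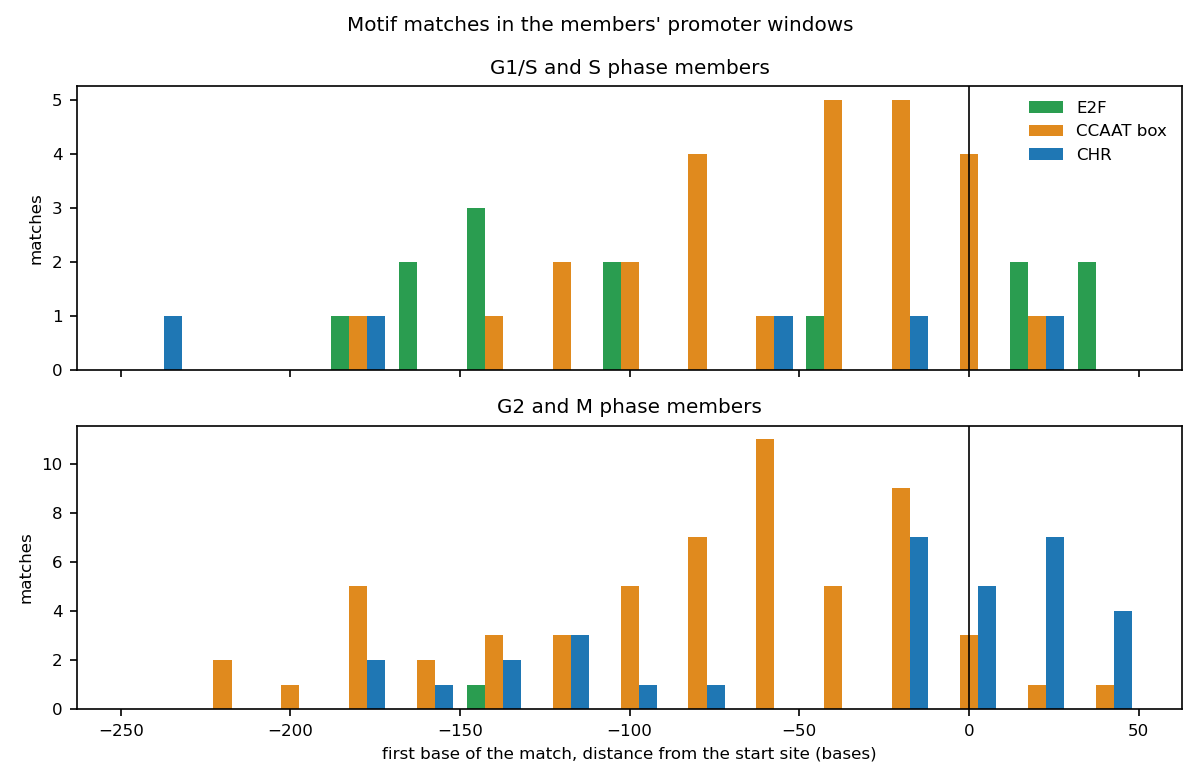
Motif matches in the 49 promoter windows of 45 members, as the number of matches (y axis) per 20 bases by the distance of their first base from the start site (x axis). The G1/S and S phase members hold 13 E2F matches (green) and the G2 and M phase members 1, while the G2 and M phase members hold 33 CHR matches (blue), 23 of them from base -40 on. A site shared by windows of the same gene counts in each.

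All 54 members passed the filter of at least 10 counts in 1 library that left 16369 genes, and 53 had at least 10 in every library. The exception was Cenpw. Member counts ran from 5 to 2644 in libraries of 15543071 (sFD17) to 19638228 (FR17) counts. Levels are in CPM (counts over the library total, scaled to a common library size) after TMM scaling, which edgeR uses to align libraries of unlike composition. The TMM factors ran from 0.849 (sFD17) to 1.17 (FR17), so values that compare these 2 libraries move with the scaling, and log2 fold changes by library size alone are given beside several of them. Without TMM the direction turned for 13 members in sFD17 against Ctrl (among them Cks2, Kif11, Ube2c and Uhrf1), 5 in FR17 against Ctrl (Cdc45, E2f8, Ect2, Mki67 and Pcna), 0 in TP5 against Ctrl, 15 in FR17 against TP5, 2 in sFD17 against TP5 (Cenpa and Kif23) and 8 in FR17 against sFD17. Among all genes tested, the median log2 fold change against Ctrl was 0.00 (TP5), -0.03 (sFD17) and 0.02 (FR17) under TMM, and 0.05, -0.23 and 0.26 by library size alone.

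The sorted cells held the RNA of the markers used in the sort. Itgam, which encodes CD11b, was at 381, 370, 433 and 302 TMM-scaled CPM in the Ctrl, TP5, sFD17 and FR17 libraries, and Ly6g was at 73.1, 97.8, 111 and 90.7. The 10 mature neutrophil markers summed to 29020 in Ctrl and to 0.946, 1.28 and 0.777 times that in TP5, sFD17 and FR17.

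Together the members took up 854 CPM of the Ctrl library (95% Wilson interval 840 to 868), 1168 of TP5 (1152 to 1185), 803 of sFD17 (789 to 817) and 1129 of FR17 (1115 to 1144). The TP5 and FR17 libraries thus had the larger shares and sFD17 the smallest. After TMM scaling the sums were 866, 1143, 945 and 966, so TP5 stayed highest at 1.32 times Ctrl (1.29 to 1.35), and FR17 stood at 1.12 times (1.09 to 1.14), close to sFD17 at 1.09 times (1.07 to 1.12). A few members carried the sums. Pcna, Mki67, Kif23, Cks2, Top2a and Cenpa held 51.3% of the member counts in Ctrl, and this set, taken by its counts, was at 1.17, 1.09 and 0.883 times Ctrl in TP5, sFD17 and FR17, or 1.21, 0.940 and 1.05 without TMM, so its direction in sFD17 and FR17 turned. The other 48 members summed to 1.48 (1.44 to 1.52), 1.09 (1.05 to 1.13) and 1.36 (1.32 to 1.40) times Ctrl, or 1.53, 0.939 and 1.61 without TMM.

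Per kilobase of exon, the members differed widely in level. In Ctrl, Cks2, a small partner of cyclin-dependent kinases, stood at 107 TMM-scaled CPM per kilobase and Pcna at 50.05. They were followed by Kif23 at 11.7, Stmn1 at 10.4 and Mki67 at 8.21. At the low end were Ccne1 at 0.423, Cenpf at 0.246 and Cenpw at 0.0703. Cdk1 was at 1.46 and Ccnb1 at 1.01.

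Member by member, TP5 was the highest of the 4 libraries for 39 of the 54 and the lowest for 0. FR17 was highest for 12, Ctrl for 2 and sFD17 for 1. Ctrl was lowest for 31 members, sFD17 for 16 and FR17 for 7. Across all genes tested, the highest library was TP5 for 19.8%, FR17 for 33.2%, sFD17 for 31.4% and Ctrl for 15.7%, and the lowest was Ctrl for 16.5%, sFD17 for 36.9%, FR17 for 31.5% and TP5 for 15.1%. This order moved with the scaling. Without TMM, FR17 was highest for 27 members (54.4% of all genes), TP5 for 25 (17.5%), Ctrl for 2 (12.0%) and sFD17 for 0 (16.1%), while sFD17 was lowest for 31 (55.7%), Ctrl for 21 (15.3%), FR17 for 2 (16.03%) and TP5 for 0 (12.9%). For 40 members both TP5 and FR17 stood above both Ctrl and sFD17, an order that 23.2% of all genes tested showed. As a comparison chosen after the data were seen, 3155 other protein-coding genes with mean levels between 5.42 and 18.8 TMM-scaled CPM, the span between the members' quartiles, were taken as genes of like abundance, and 35% of them showed that order. By library size alone 47 members and 38.7% of all genes showed it. The 14 members without it under TMM were Cdc45, Cdc6, Cdk2, Cenpa, Cks2, E2f8, Ect2, Kif20a, Kif23, Mki67, Mybl2, Pcna, Rrm2 and Tk1.

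**Figure D2:**
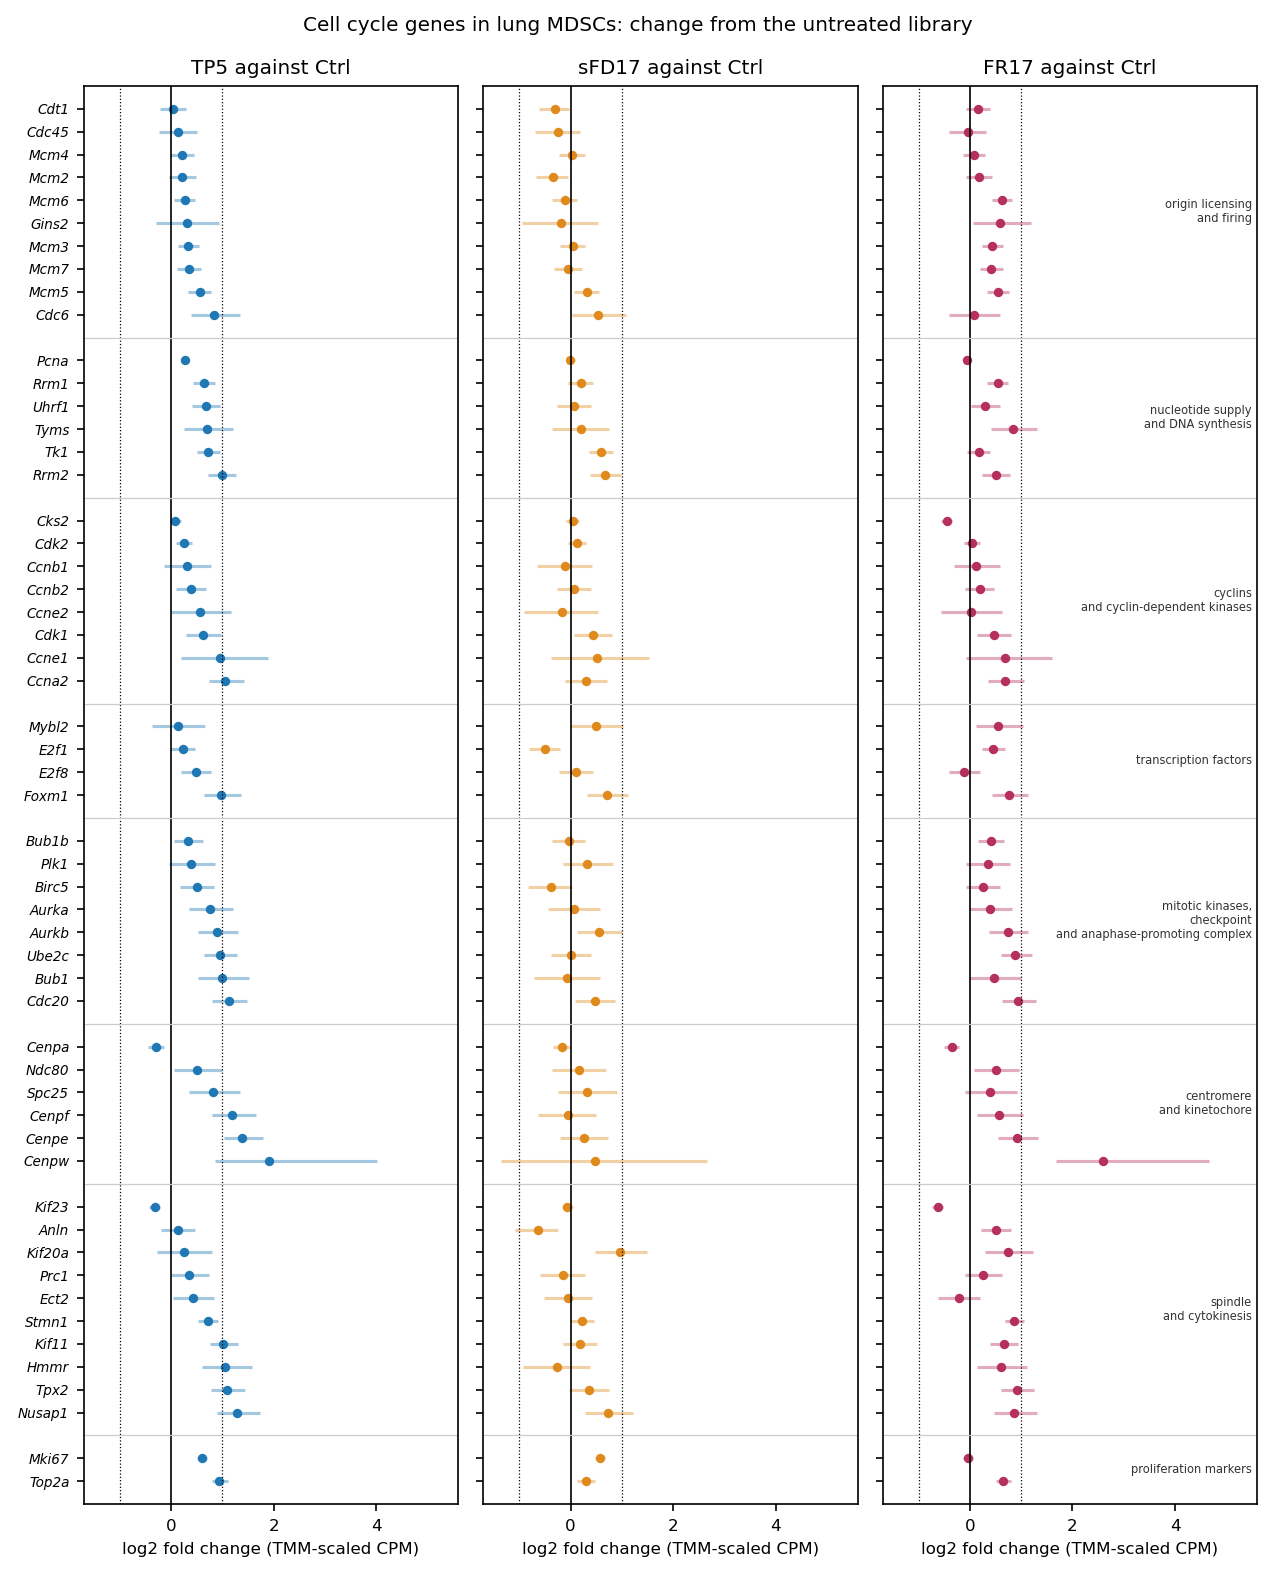
Log2 fold change of each of the 54 members (y axis, grouped by role) against the Ctrl library, on TMM-scaled CPM (x axis), for TP5, sFD17 and FR17, with bars for the 95% counting interval and dotted lines at 2-fold. In TP5, 52 members lie right of 0 and 9 are at or past 2-fold, in sFD17 34 lie right of 0, and in FR17 46 do.

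The comparison of TP5 with Ctrl sets the library of free TP5 beside that without peptide. Of the 54 members, 52 were higher in the TP5 library, where 50.1% of all genes tested were, and the median log2 fold change was 0.56. Scaled by library size alone, 52 were higher, against 55.5% of all genes. Both exceptions, Kif23 and Cenpa, were among the 6 members with the most counts. At least 2-fold higher were 9 members, against 3.2% of all genes tested, and at least 2-fold lower were 0, against 4.99%. The 9 were Kif11, Tpx2, Cdc20, Ccna2, Cenpe, Nusap1, Cenpf, Hmmr and Cenpw, all of G2 and M phase. edgeR's exact test, with the dispersion taken from the 4 libraries as 1 group, called 7 members at an unadjusted p under 0.05 (Cdc20, Cenpe, Cenpw, Kif11, Nusap1, Top2a and Tpx2), where it called 1.98% of all genes. It compares these libraries and not the treatments, and after Benjamini-Hochberg adjustment it called 0 members. Among the genes of like abundance the median was 0.03, 54% were higher and 1.24% at least 2-fold higher.

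The comparison of sFD17 with Ctrl concerns the library of the assembling peptide without TP5. Here 34 of the 54 members were higher, against 48% of all genes, and the median was 0.09. By library size alone 21 were higher, against 31.9% of all genes, and the median turned to -0.12, so no direction is given for the members as a group. Members at least 2-fold higher numbered 0, against 5.32% of all genes, and at least 2-fold lower 0, against 6.47%. The exact test called 0 members and 4.83% of all genes. With DESeq2 size factors 1 member, Kif20a, passed 2-fold. The genes of like abundance had a median of -0.18, which the members' median exceeded by 0.27.

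The comparison of FR17 with Ctrl concerns the library of the assembling peptide with TP5. Of the members 46 were higher, against 52.3% of all genes, with a median of 0.46. By library size alone 51 were higher, against 71.6%, with a median of 0.70. At least 2-fold higher was 1 member, Cenpw, against 3.92% of all genes, and 0 were at least 2-fold lower, against 3.58%. With library size scaling 9 members passed 2-fold upwards (Stmn1, Ube2c, Tpx2, Cdc20, Foxm1, Cenpe, Nusap1, Tyms and Cenpw), against 6.67% of all genes. The exact test called 1 member, Cenpw, and 1.88% of all genes. Genes of like abundance had a median of 0.16 and 70.1% were higher, so the members' median stood 0.30 above theirs. The 3 comparisons with Ctrl share that library, so a low or high value in it enters each of them.

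Between FR17 and TP5, given at the same dose per kg, 13 members were higher in FR17, against 47.8% of all genes, with a median of -0.18. By library size alone 28 were higher and the median was 0.0087, where that of all genes was 0.17. Genes of like abundance had a median of 0.10 under TMM and 62.4% of them were higher, so the members' median differed from theirs by -0.28. No member passed 2-fold (0 higher and 0 lower, against 7.04% and 2.88% of all genes), and the exact test called 0, against 3.67%. The summed members stood at 0.845 times TP5 (0.829 to 0.861) under TMM scaling. Largest were Cdc6, at -0.76 (-1.20 to -0.36), and Cenpw, at 0.68 (0.01 to 1.47).

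Between sFD17 and TP5, 4 members were higher in sFD17, against 46.7% of all genes, and the median was -0.42. By library size alone it was -0.68, where that of all genes was -0.30. Genes of like abundance had a median of -0.23 under TMM and 29.4% of them were higher, so the members' median differed from theirs by -0.19. At least 2-fold lower in sFD17 were 5 members, Cenpe, Cenpf, Hmmr, Bub1 and Cenpw, against 5.64% of all genes, and 0 were at least 2-fold higher, against 6.74%. The exact test called 1 member, Cenpf, and 4.64% of all genes.

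FR17 and sFD17 differ in the order of residues in the TP5 portion. Of the members 42 were higher in FR17, against 53.6% of all genes, and the median was 0.28 (0.73 by library size alone). The genes of like abundance had a median of 0.34, and 72.9% were higher, so by that measure the members did not stand apart, with a difference of -0.054. At least 2-fold higher in FR17 were 2 members, Anln and Cenpw, against 11.3% of all genes, and 0 were at least 2-fold lower, against 10.8%. By library size alone 13 members were at least 2-fold higher, and so were 25.7% of all genes. The exact test called Anln and Cenpw, 2 members, and 12.7% of all genes. After TMM scaling the summed members were at 1.02 times sFD17 (1.00 to 1.04), while their unscaled shares were 1129 CPM in FR17 and 803 in sFD17.

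**Figure D3:**
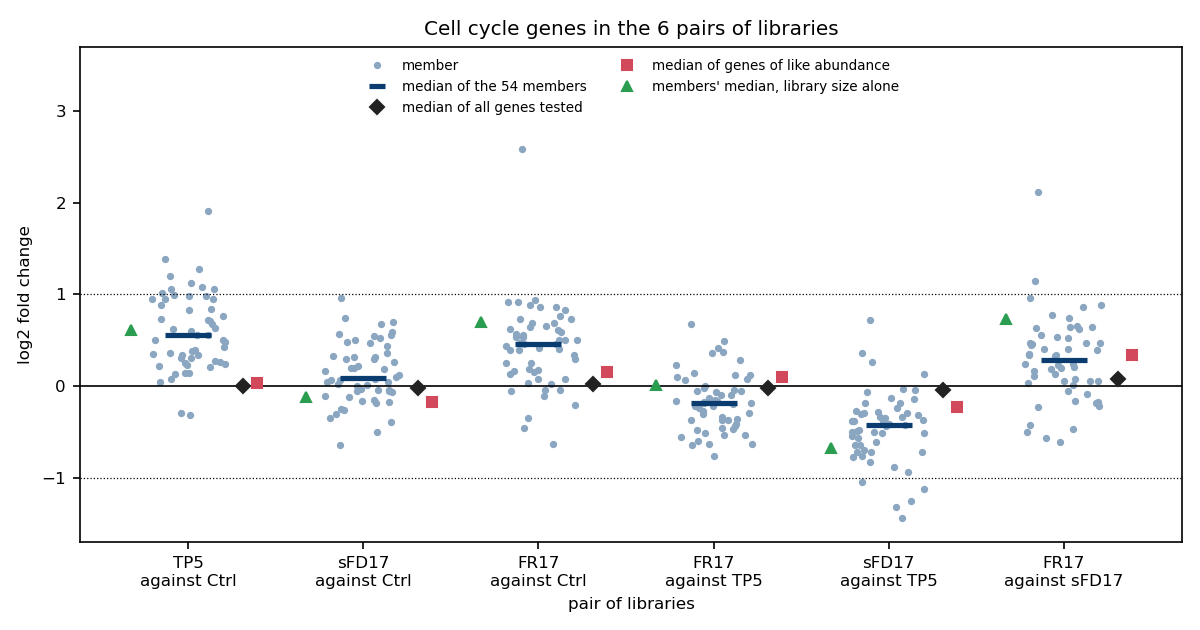
Log2 fold changes of the 54 members (points) in the 6 pairs of libraries, with the members' median (bar), the median of all 16369 genes tested (diamond), the median of the 3155 genes of like abundance (square), and the members' median by library size alone (triangle). The members' median lies 0.53 above that of genes of like abundance for TP5 against Ctrl and at -0.054 from it for FR17 against sFD17.

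The genes that license and fire replication origins had the lowest median of the 8 roles in TP5. The MCM proteins form the ring-shaped helicase that CDC6 and CDT1 load on DNA, and CDC45 and GINS2 belong to its active form. All 10 genes of this group were higher in TP5 than in Ctrl, from 0.04 (Cdt1) to 0.84 (Cdc6), with a median of 0.28, and 0 passed 2-fold. In FR17 9 of the 10 were higher, with a median of 0.29, and in sFD17 4 were, with a median of -0.08. Beside these and the later role counts, 50.1%, 48% and 52.3% of all genes were higher than Ctrl in TP5, sFD17 and FR17. At least 2-fold higher were 3.2%, 5.32% and 3.92%, and at least 2-fold lower 4.99%, 6.47% and 3.58%. Of the genes of like abundance 54%, 34.1% and 70.1% were higher. Mcm6 had the most counts of the origin genes, with 339 in Ctrl, 423 in TP5, 244 in sFD17 and 711 in FR17. Its log2 fold change against Ctrl was 0.26 (0.06 to 0.48) in TP5, -0.12 (-0.36 to 0.12) in sFD17 and 0.62 (0.44 to 0.82) in FR17, so FR17 was the highest library and lay above TP5 by 0.36 (0.19 to 0.54). Cdc6 went otherwise. With 60, 113, 69 and 86 counts in the same order, it was higher in TP5 than in Ctrl, while FR17 was at 0.07 (-0.42 to 0.58). Of the 4097 exon bases of Gins2, 2758 also belong to Gse1 on the opposite strand, and since the strand setting of the counting is not stated, its 28 to 85 counts may hold reads of Gse1.

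The 6 genes of nucleotide supply and DNA synthesis had a median of 0.69 in TP5 and all 6 were higher than in Ctrl. The median was 0.40 in FR17, with 5 higher, and 0.20 in sFD17, with 5 higher under TMM. By library size alone the sFD17 median turned to -0.013, with 2 higher. Pcna, the sliding clamp that holds DNA polymerase on its template, had 2029 counts in Ctrl, 2548 in TP5, 1584 in sFD17 and 2644 in FR17. Its log2 fold change was 0.27 (0.19 to 0.36) in TP5, -0.00 (-0.10 to 0.09) in sFD17 and -0.06 (-0.14 to 0.02) in FR17, or 0.18 in FR17 by library size alone. Rrm2, the regulated subunit of ribonucleotide reductase, and Tk1, a thymidine kinase, were highest in TP5 at 0.99 (0.72 to 1.27) and 0.73 (0.51 to 0.95), and were also higher in sFD17 than in Ctrl, at 0.67 (0.38 to 0.99) and 0.59 (0.36 to 0.83). Tyms, thymidylate synthase, was highest in FR17 at 0.83 (0.41 to 1.31). Under TMM it was the 1 member of this group highest in FR17, but by only 0.12 (-0.25 to 0.50) over TP5, which is within counting error. By library size alone Rrm1 was also higher in FR17 than in TP5, by 0.099.

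Of the 8 cyclins, cyclin-dependent kinases and their partner, all 8 were higher in TP5 than in Ctrl, with a median of 0.47, against 7 in FR17 at 0.16 and 6 in sFD17 at 0.10, where library size alone gave 3 and -0.11. Ccna2, cyclin A2, which acts in S phase and G2, was the 1 member of the group past 2-fold in TP5, against 3.2% of all genes. Its counts were 103 in Ctrl, 225 in TP5, 99 in sFD17 and 227 in FR17, while log2 fold changes for TP5, sFD17 and FR17 were 1.06 (0.73 to 1.42), 0.29 (-0.11 to 0.71) and 0.69 (0.36 to 1.05). Of its exon bases, 510 are shared with Exosc9 on the opposite strand, which had 57 to 210 counts. Cdk1, the kinase of mitotic entry, was at 0.62 (0.30 to 0.97), 0.43 (0.07 to 0.81) and 0.46 (0.14 to 0.79). Cks2 did not follow. It had 1254, 1377, 1008 and 1241 counts in Ctrl, TP5, sFD17 and FR17, so that TP5 and sFD17 were at 0.08 (-0.03 to 0.19) and 0.04 (-0.08 to 0.16) and FR17 at -0.46 (-0.57 to -0.34), which was -0.21 by library size alone.

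The 4 transcription factors were each higher in TP5 than in Ctrl, by 0.14 to 0.98. E2f1, an activator of S phase genes, had 256, 311, 141 and 479 counts in Ctrl, TP5, sFD17 and FR17. It was highest in FR17 and lowest in sFD17, with a difference between those 2 of 0.96 (0.69 to 1.25), and was at -0.50 (-0.81 to -0.20) in sFD17 against Ctrl. Foxm1 was higher in the 3 peptide libraries than in Ctrl, at 0.98 (0.64 to 1.36) in TP5, 0.70 (0.32 to 1.11) in sFD17 and 0.76 (0.42 to 1.13) in FR17. Mybl2 was at 0.14 (-0.37 to 0.66), 0.50 (-0.01 to 1.03) and 0.55 (0.12 to 1.03). E2f8, a repressor of E2F targets, was at 0.49 (0.20 to 0.78) in TP5 and -0.11 (-0.41 to 0.19) in FR17.

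The mitotic kinases, checkpoint genes and anaphase-promoting complex genes had a median of 0.82 in TP5 and 0.44 in FR17, with all 8 higher than Ctrl in both, and 0.03 in sFD17, with 5 higher, where library size alone gave -0.18 and 3. Cdc20, which activates the anaphase-promoting complex, had 107 counts in Ctrl, 244 in TP5, 117 in sFD17 and 281 in FR17. Its log2 fold changes were 1.12 (0.80 to 1.48), 0.48 (0.09 to 0.88) and 0.94 (0.62 to 1.29), so TP5 and FR17 lay above both other libraries. Ube2c, the ubiquitin-conjugating enzyme of that complex, had 126, 255, 99 and 319 counts and showed the same order, at 0.95 (0.65 to 1.28), 0.01 (-0.39 to 0.40) and 0.89 (0.60 to 1.21). Bub1, a kinase of the spindle checkpoint, had 51, 107, 38 and 97 counts and was lower in sFD17 than in TP5, at -1.05 (-1.66 to -0.54). Bub1b, its relative with the most counts of the group, had 193, 253, 147 and 349 and differed less from Ctrl, at 0.33 (0.06 to 0.61) in TP5 and 0.41 (0.15 to 0.67) in FR17. Birc5, the survivin subunit that Aurkb works with, was lowest in sFD17, at -0.39 (-0.83 to 0.03), while Aurkb was at 0.55 (0.13 to 1.00) there.

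The 6 centromere and kinetochore genes spread the most, with log2 fold changes in TP5 from -0.29 to 1.91 and a median of 1.01. Cenpe, the kinesin that draws chromosomes to the spindle's middle, had 80 counts in Ctrl, 220 in TP5, 75 in sFD17 and 207 in FR17. It was at 1.38 (1.03 to 1.79) in TP5, 0.26 (-0.21 to 0.74) in sFD17 and 0.91 (0.55 to 1.32) in FR17. Cenpf, a kinetochore protein made late in the cycle, had 64, 155, 48 and 130 counts and was at 1.20 (0.79 to 1.67), -0.06 (-0.63 to 0.50) and 0.57 (0.14 to 1.03). Cenpw, an inner kinetochore subunit, had the fewest counts of all members, 5, 25, 6 and 54, and the widest intervals, 0.86 to 4.01 around 1.91 in TP5 and 1.68 to 4.67 around 2.59 in FR17. Cenpa, the histone H3 variant that marks centromeres, went the other way with 741, 627, 515 and 788 counts. It was at -0.29 (-0.45 to -0.14), -0.17 (-0.33 to -0.00) and -0.35 (-0.50 to -0.21), and lower than Ctrl in all 3 peptide libraries also by library size alone (-0.24, -0.38 and -0.11).

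Of the 10 spindle and cytokinesis genes 9 were higher in TP5 than in Ctrl, with a median of 0.57, and 8 in FR17, with a median of 0.63. In sFD17 5 were, with a median of 0.07 that library size alone turned to -0.14. The group held 4 of the 9 members past 2-fold in TP5, against 3.2% of all genes, and 0 passed 2-fold in FR17, against 3.92% higher and 3.58% lower. Kif11, the kinesin that pushes spindle poles apart, had 165 counts in Ctrl, 348 in TP5, 147 in sFD17 and 355 in FR17. It was at 1.01 (0.75 to 1.3), 0.19 (-0.14 to 0.52) and 0.66 (0.39 to 0.94). Tpx2, which activates Aurora A on the spindle, had 112, 249, 113 and 290 counts and was at 1.09 (0.77 to 1.43), 0.36 (-0.02 to 0.76) and 0.92 (0.61 to 1.26). Nusap1, a microtubule-bundling protein, had 69, 177, 91 and 173 counts and was at 1.28 (0.90 to 1.73), 0.74 (0.29 to 1.23) and 0.87 (0.47 to 1.31), so that Ctrl was the lowest library. Hmmr, a microtubule-associated receptor for hyaluronan, had 54, 119, 35 and 113 counts and was at 1.06 (0.61 to 1.58), -0.26 (-0.93 to 0.37) and 0.61 (0.14 to 1.12). Anln, which scaffolds the contractile ring, had 147, 168, 73 and 284 counts, and was lowest in sFD17 at -0.64 (-1.08 to -0.24) and highest in FR17 at 0.50 (0.22 to 0.80).

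Kif23, a kinesin of the central spindle, had the most counts of that group and stood apart from it, with 1560 counts in Ctrl, 1298 in TP5, 1169 in sFD17 and 1369 in FR17. It was at -0.32 (-0.43 to -0.21) in TP5 and -0.63 (-0.74 to -0.53) in FR17, also lower by library size alone (-0.27 and -0.38), while Ect2, the exchange factor that works with it at the cleavage site, was at 0.43 (0.04 to 0.83) and -0.21 (-0.63 to 0.20). Kif20a, another kinesin of the central spindle, was the 1 member highest in sFD17, at 0.96 (0.48 to 1.5), though by library size alone FR17 was higher, and 1259 of its exon bases are shared with Cdc23 on the opposite strand.

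The proliferation markers Mki67 and Top2a differed in their order of libraries. Mki67, which encodes the Ki-67 protein of dividing nuclei, had 1395 counts in Ctrl, 2203 in TP5, 1621 in sFD17 and 1842 in FR17. Its log2 fold changes for TP5, sFD17 and FR17 were 0.60 (0.51 to 0.70), 0.57 (0.47 to 0.68) and -0.04 (-0.14 to 0.06), and by library size alone at 0.66, 0.36 and 0.20. Top2a, the topoisomerase that untangles sister DNA, had 524, 1049, 503 and 1118 counts and was at 0.94 (0.79 to 1.10), 0.30 (0.12 to 0.48) and 0.65 (0.50 to 0.80). Between FR17 and sFD17, Mki67 thus differed by -0.61 (-0.71 to -0.52) and Top2a by 0.35 (0.20 to 0.51), or by -0.15 and 0.81 without TMM.

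**Figure D4:**
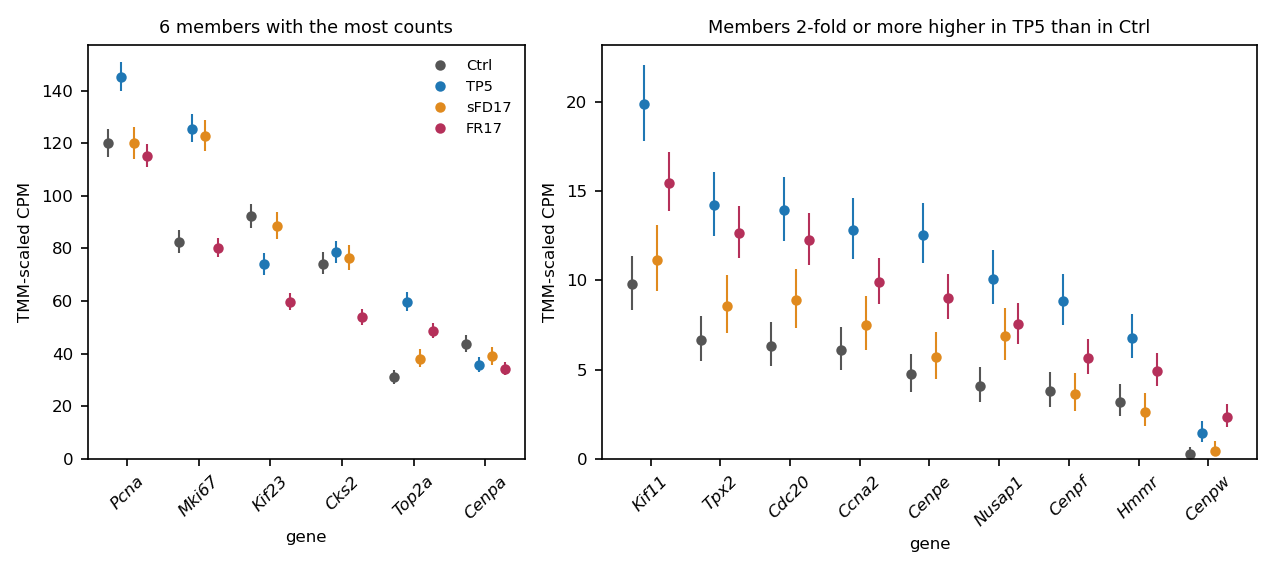
TMM-scaled CPM (y axis) of the 6 members with the most counts (left) and of the 9 members at least 2-fold higher in TP5 than in Ctrl (right) in each of the 4 libraries, with 95% Poisson counting intervals. On the right TP5 and FR17 lie above Ctrl and sFD17 for every gene, and on the left Kif23 and Cenpa are highest in Ctrl.

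By phase, the 21 G1/S and S phase members had a median of 0.35 in TP5, 0.04 in sFD17 and 0.30 in FR17 against Ctrl, and the 33 G2 and M phase members 0.72, 0.19 and 0.50. Both sFD17 medians turned by library size alone, to -0.17 and -0.03, so no direction is given for them. Summed counts gave a different picture. The ratio of G2 and M phase counts to G1/S and S phase counts, which needs no scaling, was 1.33 (1.29 to 1.37) in Ctrl, 1.37 (1.33 to 1.41) in TP5, 1.45 (1.40 to 1.5) in sFD17 and 1.25 (1.22 to 1.28) in FR17. Without Mki67 and Pcna it was 1.63, 1.59, 1.64 and 1.45. FR17 had the lowest ratio both ways, while TP5 was above Ctrl with all members and below it without Mki67 and Pcna.

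Other cell cycle genes, from lists that share no gene with the members, gave the following. Of 32 other DNA replication genes 25 were higher in TP5 than in Ctrl and 26 in FR17, with medians of 0.33 and 0.40, against 50.1% and 52.3% of all genes higher, and 0 passed 2-fold in either, against 3.2% and 3.92%. Without TMM 27 were higher in TP5 and 32 in FR17 (55.5% and 71.6% of all genes), and 1 and 4 were at least 2-fold higher (3.68% and 6.67%). Mcm10 was at 0.96 in TP5 and 0.89 in sFD17, and Orc6 at 0.95 in TP5 and 0.94 in FR17. Of 47 other mitosis genes 41 were higher in TP5, with a median of 0.73, and 37 in FR17, with a median of 0.54. At least 2-fold higher were 7 of them in TP5 (against 3.2% of all genes), 5 in FR17 (Spc24, Kif18b, Sgo1, Ttk and Cenpm, against 3.92%) and 1 in sFD17 (Melk, against 5.32%), where the median was 0.07. Without TMM these counts were 8, 10 and 0, against 3.68%, 6.67% and 3.54% of all genes, and the sFD17 median was -0.14. At least 2-fold lower were 1 in TP5 (Cenpk, against 4.99%), 2 in sFD17 (Cenph and Cenpk, against 6.47%) and 0 in FR17 (3.58%), and these names follow from the values. Kif18b, with 24, 69, 37 and 68 counts, was at 1.40 in TP5 and 1.00 in FR17, and Cenpm, with 15, 33, 7 and 61, at 0.99 and 1.47. The sums of these mitosis genes were 0.924 and 0.705 times Ctrl in TP5 and FR17, the opposite sign to their medians.

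The genes around the G1 decision and the inhibitors were also read. The 12 tested G1 cyclins, kinases and entry factors had medians of 0.07 in TP5, 0.03 in sFD17 and 0.29 in FR17, or 0.12, -0.18 and 0.54 by library size alone. In each of the 3, 0 passed 2-fold, against 3.2%, 5.32% and 3.92% of all genes higher and 4.99%, 6.47% and 3.58% lower. The sum of the whole list of 13 was at 1.04, 1.25 and 1.00 times Ctrl, or 1.08, 1.08 and 1.19 without TMM. E2f2 was at 0.38, 0.66 and -0.09 and E2f3 at 0.03, 0.64 and 0.18. The 24 cell cycle inhibitors and quiescence factors had medians of 0.04, 0.02 and -0.08, or 0.09, -0.19 and 0.16 by library size alone. Their sum was at 0.902, 1.20 and 0.696 times Ctrl. At least 2-fold higher were 0, against 3.2%, 5.32% and 3.92% of all genes. At least 2-fold lower was 1, Cdkn2a, which had few counts, in TP5 and in sFD17, against 4.99% and 6.47% of all genes. Gadd45b, a stress-induced growth arrest gene with 29443 counts in Ctrl, was at -0.11, 0.27 and -0.65, and Btg1, an antiproliferative gene with 46511, at -0.37, 0.09 and -0.61.

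Several cell type marker lists also differed between the libraries. The neutrophil progenitor list held 12 genes, mostly of granule proteins and among them Elane, Mpo, Camp, Ltf, Lcn2, Cebpe and Gfi1. They summed to 7111 TMM-scaled CPM in Ctrl and to 1.68, 1.48 and 1.28 times that in TP5, sFD17 and FR17. In each, 12 of 12 were above Ctrl (10 in sFD17 by library size alone). TP5 was the highest library under both scalings, while sFD17 stood above FR17 under TMM and below it by library size alone (1.28 and 1.51 times Ctrl). Lists of other leukocytes differed too. The 8 NK cell markers summed to 34.8 in Ctrl and were at 0.723, 0.774 and 2.92 times Ctrl, and the 10 T cell markers summed to 57.8 and were at 0.831, 0.685 and 1.77 times. The 10 alveolar macrophage markers summed to 3809 in Ctrl and were at 0.925, 0.348 and 1.40 times, with 10 of 10 above Ctrl in FR17 and 0 in sFD17. The 10 interstitial macrophage and monocyte markers were at 0.725, 0.564 and 1.14 times a sum of 3838, the 8 dendritic cell markers at 1.77, 1.10 (0.948 without TMM) and 1.33 times 179, and the 8 B cell markers at 1.68, 1.23 and 1.40 times 114. Their part in the members' values was not tested. The 10 melanoma markers summed to 1977, 1848, 627 and 2586 counts, or 0.900, 0.406 and 0.963 times Ctrl after TMM scaling (1.14 in FR17 without it). Gpnmb and Mitf, which macrophages also express, held most of them, with 1392, 1264, 327 and 1883 and with 554, 542, 266 and 660 counts. Of the pigment cell genes, Pmel had 20, 38, 28 and 26 counts, Trpm1 had 2 to 9, Sox10 had 0 to 8, Dct and Mlana had 0 or 1, and Tyr, Tyrp1 and Slc45a2 had 0 in each library. The remaining lists (type 2 innate lymphoid, plasma, mast and basophil, erythroid, platelet, endothelial, fibroblast and epithelial) ranged from 0.432 to 2.01 times Ctrl, and without TMM the endothelial list turned in sFD17 (1.10 to 0.951) and the plasma cell list in FR17 (0.956 to 1.13).

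**Figure D5:**
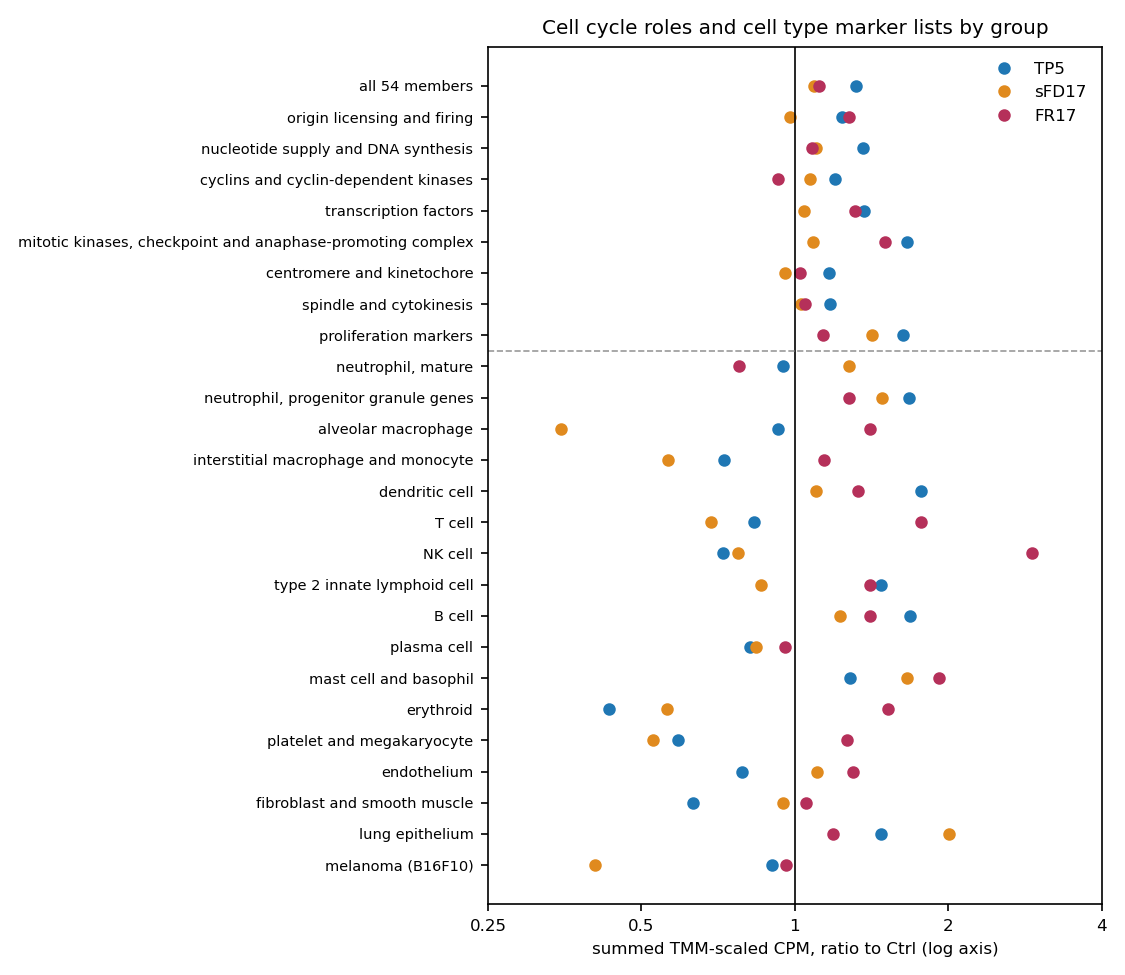
Summed TMM-scaled CPM of all members, of the 8 roles (above the dashed line) and of 17 cell type marker lists (below it), as ratios to Ctrl on a log axis for TP5, sFD17 and FR17. Mitotic kinase genes sit at 1.66 in TP5 and 1.5 in FR17, the neutrophil progenitor list at 1.68 in TP5, and NK cell markers at 2.92 in FR17.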

How the data were processed

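Messenger RNA of sorted lung MDSCs was measured in 4 libraries, 1 per group. The deposited values are raw counts of reads for each gene. The submitters' processing notes name HISAT2 2.0.5, StringTie 1.3.3b, featureCounts 1.5.0-p3, edgeR 3.18.1 and GRCm38.p6, without giving their roles. The kit keeps strand, and whether counting used it is not given in the sources used here. All 54532 genes entered library totals. Log2 fold changes came from edgeR 4.0.16 (R 4.3.3) (TMM scaling, prior count 2) over 16369 genes with at least 10 counts in 1 library. With 1 library per group a call is a 2-fold difference. The exact test used a trended dispersion over the 4 libraries as 1 group (common biological coefficient of variation 0.267), since quasi-likelihood needs residual degrees of freedom. Intervals are exact binomial for ratios of counts. Values in full were given for Mki67, Top2a, each role's member with the most counts, members with at least 50 counts and a 2-fold difference in any pair, the 2 largest changes in each other cell cycle list, and further members chosen after their values were seen. The members and lists were chosen with earlier results of these data known. The fold and exact test were tested on simulated data. DESeq2 1.42.0, library size scaling, other filters, priors and dispersions were tried. Sequences came from RefSeq.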

Additional observations from a re-analysis of the deposited data

How the results depend on the processing

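The members' medians below are log2 values for TP5, sFD17 and FR17 against Ctrl, then FR17 against TP5, sFD17 against TP5 and FR17 against sFD17, in that order. As reported they were 0.56, 0.09, 0.46, -0.18, -0.42 and 0.28. By library size alone they were 0.61, -0.12, 0.70, 0.0087, -0.68 and 0.73, so the signs for sFD17 against Ctrl and FR17 against TP5 turned. DESeq2 size factors moved the sFD17 comparisons to 0.13 (Ctrl), -0.38 (TP5) and 0.23 (FR17). Without a filter the last 5 were 0.055, 0.53, -0.11, -0.46 and 0.39. For FR17 against sFD17, requiring 10 counts in every library gave 0.25 and 50 counts in 1 library gave 0.33. Taken from the median of genes of like abundance, an alternative chosen after seeing the data, the last 5 were 0.27, 0.30, -0.28, -0.19 and -0.054, so FR17 against sFD17 turned.

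In the counts of called members that follow, the share of all genes called stands in parentheses. Members at least 2-fold higher in TP5 than Ctrl went from 9 to 26 (8.98%) at 1.5-fold. For sFD17 against Ctrl, DESeq2 factors gave 1 higher (5.69%), and 1.5-fold gave 5 higher (13.4%) and 1 lower (15.6%). For FR17 against Ctrl, library size gave 9 (6.67%), no filter 2 (5.48%), 10 counts in every library 0 (1.28%, Cenpw dropped out), and 1.5-fold 18 higher (11%) and 1 lower (11.7%). For FR17 against TP5, 1.5-fold gave 1 higher (14.4%) and 5 lower (10.1%). For sFD17 against TP5, library size gave 10 lower (10.1%), and 1.5-fold 17 lower (16.4%) and 1 higher (15.4%). For FR17 against sFD17, library size gave 13 (25.7%), 10 counts in every library 1 (8.04%), and 1.5-fold 12 higher (24.7%) and 1 lower (21.3%).

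The exact test's calls for TP5 against Ctrl went from 7 to 1 (0.922%) at a fixed coefficient of variation of 0.4, 14 (5.4%) at 0.2, 0 (0.0305%) after Benjamini-Hochberg adjustment and 1 (0.385%) by DESeq2's Wald test. At 0.2 it called 1 (9.28%) for sFD17 against Ctrl, 6 (6.01%) for FR17 against Ctrl, 6 (9.82%) for sFD17 against TP5 and 4 (21.7%) for FR17 against sFD17. At 0.4 the last 2 gave 0 (1.89%) and 1 (5.06%), and by DESeq2 0 (0.849%) and 0 (6.95%). Adjustment left 0 members in each pair.

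The members' share without Pcna was 735, 1020, 701 and 995 CPM in Ctrl, TP5, sFD17 and FR17. The sum over all 54 members with TMM was 1143, 945 and 966 in the peptide libraries. The phase ratio without Mki67 and Pcna was 1.63, 1.59, 1.64 and 1.45, so TP5 went from above Ctrl to below it. On the log2 scale against Ctrl the ratio over all members was 0.05 in TP5 and -0.09 in FR17. The difference of the phase lists' medians was 0.37 and 0.21, so FR17 turned.

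Of 324 values of members in pairs, library size moved 94 by more than their counting interval, no filter moved 2, and DESeq2 factors and the smaller prior 0. No paired analysis was possible because each group has 1 library. Depth limits members of few counts, as Cenpw with 5 in Ctrl. The 3 scalings cannot be ranked from these files.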
